A study of Mus musculus with 9 samples.

Results

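Steap4 and 7 further genes of myeloid iron handling were followed in CD11b+ bone marrow cells of mice that had received extracellular vesicles (EVs) of a prostate cancer cell line. The 8 genes are the metalloreductases Steap4 and Steap3, the transporters Slc11a1, Slc11a2 and Slc40a1, the transferrin receptor Tfrc and the ferritin chains Fth1 and Ftl1. They were chosen by name out of 23337 genes in the count files, and all 8 were among the 12553 genes that passed the filter on low counts. Steap4 was chosen from the contrast of EnzR EVs against PBS, so the values of the 8 genes in that contrast are a description and carry no test.

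All mice were male C57BL/6, obtained at 3 to 6 weeks of age, with 3 mice in each of 3 groups. The PBS group received 100 µl of PBS in the tail vein on Days 1, 3 and 5. The EnzR EV group received 10 µg of EV protein on the same days, from enzalutamide-resistant CWR-R1 cells, a human prostate cancer line that grows despite the androgen receptor inhibitor enzalutamide. The EnzR EVs + HDL NPs group received the same EVs and, on Days 0, 2 and 4, high-density lipoprotein-like nanoparticles (HDL NPs), given as 1 µM in the sample labels. No group received HDL NPs without EVs. Marrow was taken the day after the last injection, CD11b+ cells were selected with magnetic particles, and total RNA depleted of ribosomal RNA was sequenced, 1 library per mouse.

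CD11b marks neutrophils, monocytes and macrophages. Myeloid cells take up iron bound to transferrin, reduce it in endosomes, move it into the cytosol, store it in ferritin and export it through ferroportin, and marrow macrophages also recover iron from aged red cells. Iron regulatory proteins bind hairpins called iron-responsive elements (IREs) in several of these mRNAs: in a 3′ UTR they protect the mRNA from decay, and in a 5′ UTR they hold back translation, which read counts do not show. STEAP4 is a membrane reductase of iron and copper that is known to be induced by inflammatory cytokines.

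The IRE matches are shown because this control is specific to the mRNAs that carry the element. The loop letters CAGTGN (last base not G) were searched on the annotated transcripts (GENCODE M21, GRCm38). The loop had to lie between the arms of a 5-base stem, all bases paired (G-T allowed), with a bulged C before the first arm. The search found 7 matches in 4 of the 8 genes. Capitals mark the loop, and each run is written 5′ to 3′ on the transcript strand.
Slc40a1, 5′ UTR, chr1:45925465-45925493, minus strand: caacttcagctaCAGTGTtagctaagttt
Tfrc, 3′ UTR, chr16:32631219-32631247, plus strand: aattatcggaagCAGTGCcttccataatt
Tfrc, 3′ UTR, chr16:32631598-32631626, plus strand: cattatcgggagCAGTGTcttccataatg
Tfrc, 3′ UTR, chr16:32631663-32631691, plus strand: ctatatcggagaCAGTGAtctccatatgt
Tfrc, 3′ UTR, chr16:32631710-32631738, plus strand: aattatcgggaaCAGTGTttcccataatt
Fth1, 5′ UTR, chr19:9982732-9982760, plus strand: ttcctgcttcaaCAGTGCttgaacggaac
Ftl1, 5′ UTR, chr7:45459779-45459807, minus strand: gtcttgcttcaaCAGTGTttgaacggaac
No match to this pattern was found in the annotated coding transcripts of Steap4, Steap3, Slc11a1 or Slc11a2. Slc11a2 is nevertheless known to have an mRNA form with a 3′ UTR IRE, which this strict pattern does not find.

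Libraries held between 2575776 and 18110561 counts. In 3 of them, PBS replicate 1 and EnzR EV replicates 1 and 3, the ribosomal RNA precursor Rn45s took 14.2% to 42.7% of the counts, against 0.657% to 2.87% in the other 6. These 3 libraries were also the shallowest, and no HDL NP library was among them. The CD11b+ label was checked against 7 myeloid markers, all of which were above 3 counts in every library. Some markers of other cell types also passed that floor, so the check covers the presence of myeloid RNA and not the purity of the cells. Levels are TMM-scaled CPM, that is counts scaled to the library size after its adjustment by the TMM factor of that library. A log2 fold change is the group difference fitted by edgeR (quasi-likelihood test) to the 9 libraries together. The smallest p that an exact permutation test (two-sided) of 3 mice against 3 can give is 0.1. In bulk cells, a change in RNA per cell and a change in the share of a cell type cannot be told apart.

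Per transcript length, the 8 genes spanned a wide range. Mean CPM per kb of the longest coding transcript was 333.9 ± 160 (SD, n = 9) for Ftl1 and 305.9 ± 77.5 for Fth1, the chains of the ferritin shell. Slc40a1, which encodes ferroportin, the iron exporter, stood at 134 ± 27.8 CPM per kb. Slc11a1 (Nramp1, a metal transporter of the phagosome membrane) stood at 38.1 ± 8.55 and Tfrc at 18.3 ± 3.48. Steap4 was at 4.24 ± 3.30, Slc11a2 (DMT1, the endosomal iron transporter) at 1.62 ± 1.02 and Steap3, the endosomal ferrireductase of transferrin iron, at 1.07 ± 0.456. The spreads of Ftl1 and Fth1 overlap, as do those of Steap4, Slc11a2 and Steap3, and within each of these sets there is no order beyond the spread. C57BL/6 mice carry a loss-of-function form of Slc11a1, so its counts report mRNA and not transport.

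**Figure D1:**
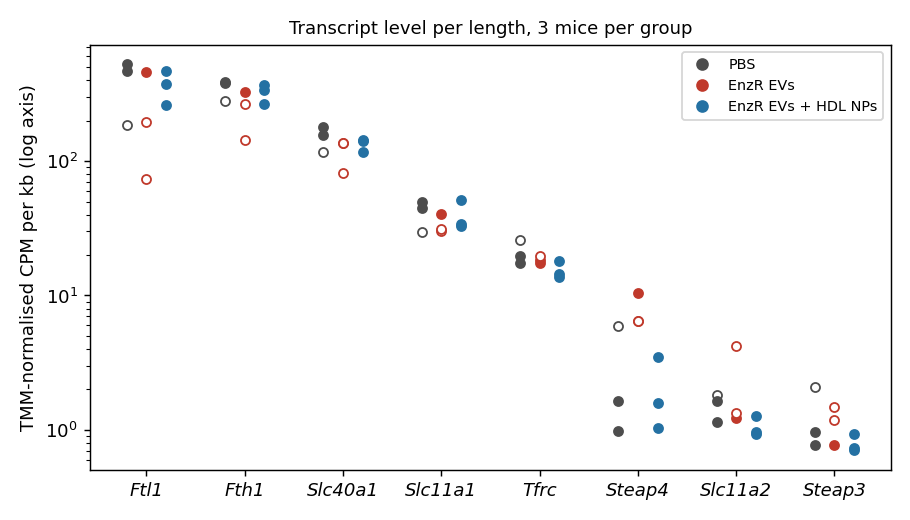
TMM-normalised CPM per kb of transcript (log axis) for the 8 genes, 1 point per mouse, coloured by group; open points are the 3 libraries with the highest Rn45s share. Ferritin chains have the highest means and Steap3 the lowest, and Steap4 spans 10.7-fold from its lowest to its highest mouse.

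Steap4 lies on chromosome 5 at 7960457 to 7982213, plus strand (GRCm38), with 1 coding transcript of 5 exons. Its level in the PBS mice was 18.8, 3.11 and 5.21 CPM, in the EnzR EV mice 20.3, 33.1 and 20.5 CPM, and in the EnzR EVs + HDL NPs mice 3.26, 10.97 and 5.03 CPM. The counts behind these values were 107, 54 and 91, then 37, 622 and 173, then 58, 184 and 72. All 3 EnzR EV mice lay above all mice of the other groups, the nearest being PBS replicate 1, and the PBS and HDL NP ranges overlapped. The separation from PBS replicate 1 depends on the TMM factors, 0.710 for EnzR EV replicate 1 and 0.947 for PBS replicate 1. By library totals alone (37 of 2575776 and 107 of 6006087 counts), EnzR EV replicate 1 lay below PBS replicate 1.

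Group means of Steap4 were 9.05 ± 8.54 CPM (SD, n = 3) in PBS, 24.6 ± 7.35 in EnzR EVs and 6.42 ± 4.04 in EnzR EVs + HDL NPs. The EnzR EV mean was 2.72 times the PBS mean, with a log2 fold change of 1.56 (SE 0.632), given without a test because this contrast chose the gene. Without PBS replicate 1 the log2 fold change was 2.59. Among the tested genes, 3.43% had all EnzR EV mice above all PBS mice and 4.52% had them below. edgeR called 0 genes there (0%, 436 or 3.47% at an unadjusted p under 0.05) and DESeq2 called 11 (0.0876%).

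The EnzR EVs + HDL NPs group was compared with EnzR EVs; without a group given HDL NPs alone, an effect of HDL NPs and a change in an effect of the EVs cannot be told apart. Steap4 was lower in EnzR EVs + HDL NPs than in EnzR EVs, with a log2 fold change of -1.96 (SE 0.627). Without HDL NP replicate 2 it was -2.61. With all mice kept, the EnzR EV mean was 3.83 times the HDL NP mean. edgeR, fitted across all genes, gave an unadjusted p = 0.0101 and, over 12553 genes, an adjusted p = 0.461 (Benjamini-Hochberg). The difference did not pass the threshold of 0.05. DESeq2 gave an adjusted p of 0.271. The lower value was seen in 3 of 3 HDL NP mice (exact permutation p = 0.1, the smallest possible). In this comparison 8.58% of genes lay fully lower and 8.99% fully higher, and 1 of the 8 genes, Steap4, was fully lower and 0 fully higher. The 2 tools called 0 genes (edgeR, 0%, with 1325 or 10.6% at an unadjusted p under 0.05) and 1 gene (DESeq2, 0.00797%). This comparison uses the same EnzR EV mice as the contrast that chose Steap4 and is not independent of it.

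The 3 libraries rich in Rn45s held Steap4 at 18.8 to 20.5 CPM whichever group they came from, and within them the EnzR EV mean was 1.08 times the PBS value. In the other 6 libraries the 1 EnzR EV mouse stood at 33.1 CPM, against a mean of 4.16 CPM in 2 PBS mice, 7.97 times as high, and against 6.42 CPM in the 3 HDL NP mice, 5.16 times as high. With all 3 Rn45s-rich libraries left out, an alternative chosen after seeing the data, the log2 fold change of EnzR EVs against PBS was 3.00 and rested on 1 EnzR EV mouse. With the log2 Rn45s share as a covariate, also chosen after seeing the data, it was 1.69, and for HDL NPs against EnzR EVs -1.79 (edgeR adjusted p = 1.00). The same 3 libraries were lowest in the summed level of 8 mature neutrophil markers, at 23565, 9582 and 29113 CPM, against 45116 to 102023 CPM in the other 6. The sum of 8 monocyte markers was lowest in EnzR EV replicates 1 and 3, at 2172 and 2880 CPM, and 3096 to 4191 CPM in the other 7 libraries. The parts of Rn45s-rich RNA and of these cell types in the differences of all 8 genes were not tested.

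**Figure D2:**
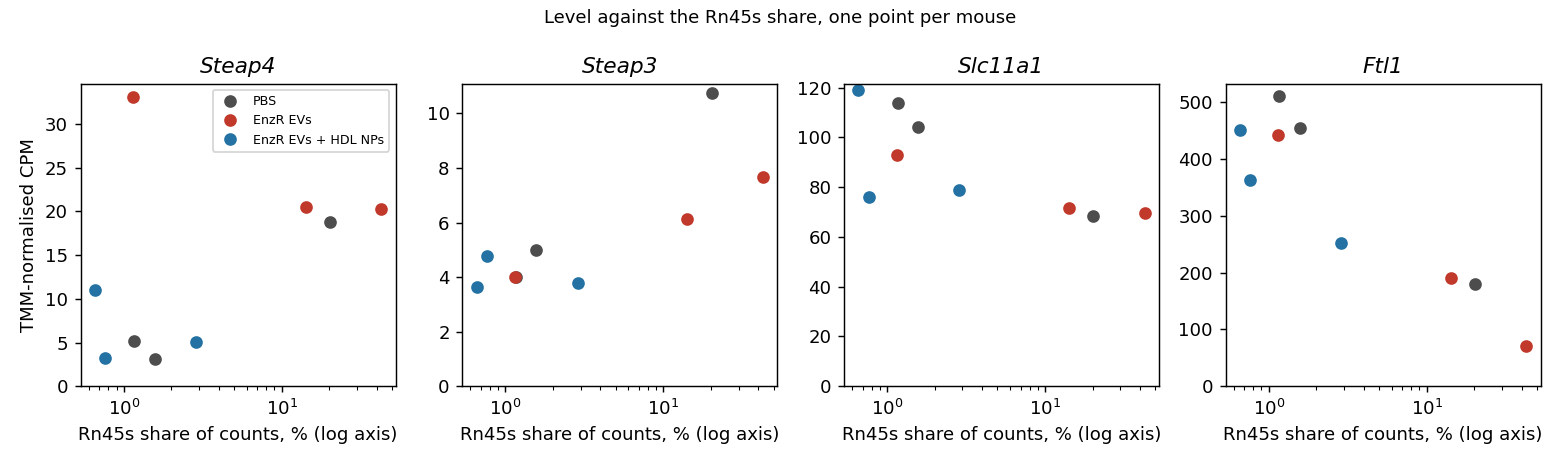
TMM-normalised CPM of Steap4, Steap3, Slc11a1 and Ftl1 against the share of Rn45s in the library (%, log axis), 1 point per mouse, coloured by group. The 3 points at the right are PBS replicate 1 and EnzR EV replicates 1 and 3; there Steap4 lies between 18.8 and 20.5 CPM, while Slc11a1 and Ftl1 lie below and Steap3 above all other libraries.

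Against PBS, Steap4 in EnzR EVs + HDL NPs had a log2 fold change of -0.40 (SE 0.628, edgeR adjusted p = 1.00), and the groups overlapped (exact permutation p = 0.7). That direction turned to 0.63 without PBS replicate 1, whose 18.8 CPM was above both other PBS mice. In this comparison 6.96% of all genes lay fully higher and 6.21% fully lower, and none of the 8 genes did either. edgeR called 0 genes (0%, 268 or 2.13% at an unadjusted p under 0.05) and DESeq2 called 8 (0.0637%).

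The sequence before the Steap4 start is shown because the gene is known as a target of cytokine signalling. It covers the bases upstream of the RefSeq start (GRCm38.p6) up to the first base annotated as exon. Capitals mark the STAT-type letters TTCNNNGAA, starting at position -116 from the RefSeq start, and the C/EBP-type letters TTGCNNAA, starting at -87.
Steap4, chr5:7960222-7960456, plus strand: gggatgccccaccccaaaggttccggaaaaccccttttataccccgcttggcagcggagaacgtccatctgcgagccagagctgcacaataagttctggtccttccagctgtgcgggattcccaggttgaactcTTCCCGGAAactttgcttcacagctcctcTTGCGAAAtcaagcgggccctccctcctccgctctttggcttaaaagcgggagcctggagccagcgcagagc
On either strand, TTCNNNGAA occurs in 7.02% and TTGCNNAA in 9.56% of 32851 RefSeq promoters of 250 bases. The NF-kB consensus had 1 match, at -226, as it does in 5% of promoters, and the IRF-type letters GAAANNGAA, present in 7.13%, did not match. The TATA letters TATAAA, present in 12.4%, had 1 match, at -215 in reverse orientation. The motifs do not overlap each other, they were picked with the gene in view, and a match describes letters and not binding. Among the 6 of 8 genes with a RefSeq promoter entry, TTCNNNGAA was found in Steap4 alone. TTGCNNAA was also found in a promoter of Steap3 and of Fth1, the NF-kB consensus in a promoter of Steap3 and TATAAA in a promoter of Fth1.

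Steap3 is encoded on chromosome 1 at 120190757 to 120272705. Its level was 10.7, 5.00 and 4.00 CPM in PBS mice, 7.68, 3.99 and 6.15 CPM in EnzR EV mice and 4.78, 3.64 and 3.77 CPM in HDL NP mice. The 3 highest values are those of the 3 Rn45s-rich libraries. The log2 fold change was -0.18 (SE 0.407) for EnzR EVs against PBS and turned to 0.30 without PBS replicate 1 and to 0.11 without EnzR EV replicate 2. It was -0.46 for HDL NPs against EnzR EVs (SE 0.405, edgeR adjusted p = 0.606) and turned to 0.03 without the Rn45s-rich libraries.

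Tfrc brings transferrin-bound iron into the cell. Its level was 126, 84.8 and 96.8 CPM in PBS mice, 90.0, 85.7 and 96.2 CPM in EnzR EV mice and 88.8, 70.2 and 67.3 CPM in HDL NP mice. The group ranges overlapped in each comparison, with the HDL NP mice lowest on average at 75.4 CPM. Against PBS the log2 fold change was -0.44 (SE 0.187, edgeR adjusted p = 1.00), and against EnzR EVs it was -0.26 (SE 0.188, edgeR adjusted p = 0.541). The value against PBS was -0.27 without PBS replicate 1, an Rn45s-rich library and the highest of the PBS mice. The value against EnzR EVs was -0.0231 when scaled by library size only. Erythroid precursors are rich in Tfrc, and the summed level of 16 erythroid markers ran from 134 to 296 CPM in PBS, 77.8 to 135 in EnzR EVs and 63.0 to 373 in HDL NP mice, with Hba-a1, Hba-a2, Hbb-b1 and Hbb-b2 listed at 0 throughout. The part of erythroid cells in the Tfrc values was not tested.

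Slc11a2 stood at 8.10, 5.06 and 7.21 CPM in PBS mice, 18.7, 5.43 and 5.91 CPM in EnzR EV mice and 5.63, 4.11 and 4.26 CPM in HDL NP mice. The value of 18.7 CPM is that of the library with the highest Rn45s share and rests on 34 counts. Against EnzR EVs the log2 fold change with HDL NPs was -0.90 (SE 0.445, edgeR adjusted p = 0.461) and it was -0.28 without that library. The gene overlaps Gm5475 on the opposite strand, and whether the counting used strand is not given in the sources used here.

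Slc11a1 stood at 68.3, 104 and 114 CPM in PBS mice, 69.7, 92.8 and 71.8 CPM in EnzR EV mice and 76.2, 119 and 78.8 CPM in HDL NP mice. The 3 Rn45s-rich libraries were below all others, and the 3 groups overlapped. Its log2 fold change was -0.29 (SE 0.245) for EnzR EVs against PBS, -0.07 (SE 0.243, edgeR adjusted p = 1.00) for HDL NPs against PBS and 0.22 (SE 0.245, edgeR adjusted p = 0.680) for HDL NPs against EnzR EVs. For HDL NPs against PBS it turned to 0.0769 without PBS replicate 3. For HDL NPs against EnzR EVs it turned to -0.0397 without HDL NP replicate 2 and to -0.0252 without the 3 Rn45s-rich libraries.

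Slc40a1 stood at 393, 529 and 605 CPM in PBS mice, 273, 461 and 456 CPM in EnzR EV mice and 391, 483 and 475 CPM in HDL NP mice. EnzR EV replicate 1 was lowest, and the groups overlapped. The log2 fold change was -0.36 (SE 0.237) for EnzR EVs against PBS and 0.18 (SE 0.236, edgeR adjusted p = 0.726) for HDL NPs against EnzR EVs. Without EnzR EV replicate 1 these were -0.15 and -0.0346, so the direction of the latter turned. Marrow macrophages are known for high ferroportin, and the sum of 12 macrophage markers was 705 to 1269 CPM in PBS, 571 to 699 in EnzR EVs and 640 to 830 in HDL NP mice. At this scaling all EnzR EV mice lay below all PBS mice, the nearest at 699 against 705 CPM. That order depends on the TMM factors, 1.04 for EnzR EV replicate 2 and 0.947 for PBS replicate 1. By library totals alone, EnzR EV replicate 2 lay above PBS replicate 1. The part of macrophage share in the Slc40a1 values was not tested.

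Per transcript length the ferritin chains had the highest mean level of the 8 genes. Fth1, the heavy chain that oxidises iron, stood at 421, 581 and 573 CPM in PBS mice, 213, 484 and 397 CPM in EnzR EV mice and 397, 501 and 547 CPM in HDL NP mice. Ftl1, the light chain, stood at 179, 454 and 510 CPM in PBS mice, 70.8, 442 and 190 CPM in EnzR EV mice and 362, 450 and 252 CPM in HDL NP mice. The 3 lowest Ftl1 values are the 3 Rn45s-rich libraries, and EnzR EV replicate 1, the richest in Rn45s, was lowest for both chains.

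For EnzR EVs against PBS the log2 fold change was -0.52 (SE 0.279) for Fth1 and -0.69 (SE 0.560) for Ftl1. Without EnzR EV replicate 1 these were -0.25 and -0.27, and without EnzR EV replicate 2 they were -0.75 and -1.50. For HDL NPs against EnzR EVs it was 0.40 (SE 0.278, edgeR adjusted p = 0.537) for Fth1 and 0.59 (SE 0.560, edgeR adjusted p = 0.629) for Ftl1. Without the Rn45s-rich libraries the latter pair turned to -0.01 and -0.32. Ftl1 is the shortest of the 8 transcripts at 968 nt, and over 517 tested genes under 1 kb the median log2 difference of the Rn45s-rich from the other libraries was -0.21, against -0.05 for longer genes. Ftl1 itself stood at 70.8 to 190 CPM in the Rn45s-rich libraries and at 252 to 510 CPM in the others. The part of transcript length in the Ftl1 values was not tested. Both ferritin genes have near-identical processed copies elsewhere in the genome, so reads could be split or dropped and their levels are uncertain.

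**Figure D3:**
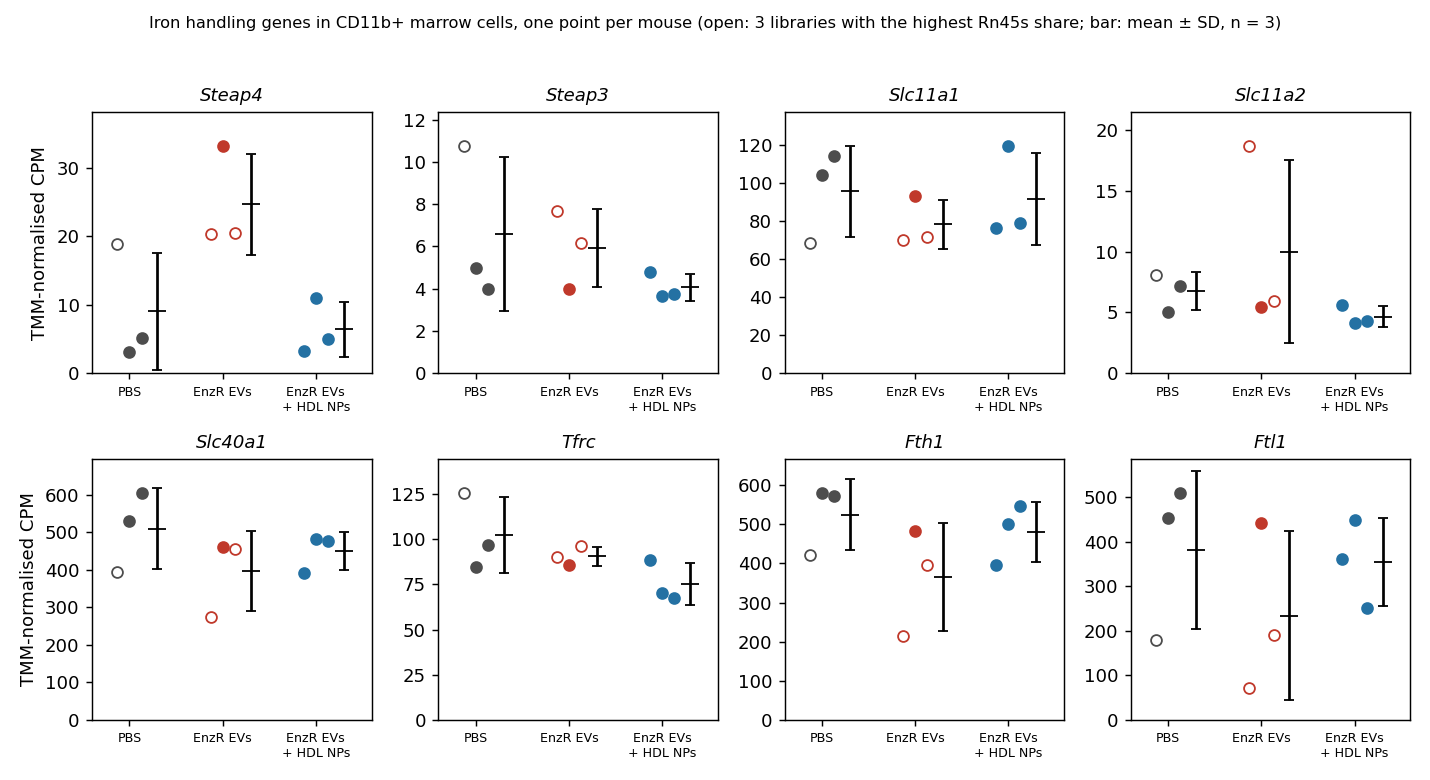
TMM-normalised CPM of each of the 8 genes, 1 point per mouse, with the group mean ± SD (n = 3) beside the points; open points are the 3 libraries with the highest Rn45s share. At this scaling, Steap4 is the 1 gene whose EnzR EV points (20.3 to 33.1 CPM) all lie above the points of both other groups. Steap4 was chosen from the contrast of EnzR EVs against PBS, so this order follows from the choice. Of all tested genes, 3.43% had all EnzR EV mice above all PBS mice.

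Across the 8 genes, the median log2 fold change was -0.24 for EnzR EVs against PBS, where all tested genes had -0.03. It was -0.29 for EnzR EVs + HDL NPs against PBS, where all genes had -0.01 and 8 of the 8 genes were below 0, of which Steap4, Slc11a1, Fth1 and Ftl1 turned above 0 under at least 1 alternative. For HDL NPs against EnzR EVs the median was -0.04, where all genes had 0.03, with 4 genes on each side of 0. No adjusted p of the 8 genes passed 0.05 in either HDL NP comparison with edgeR or DESeq2, and 1 gene in each (Tfrc against PBS, Steap4 against EnzR EVs) had an unadjusted edgeR p under 0.05, as did 2.13% and 10.6% of all tested genes. The comparisons share mice, so their values stand side by side and are not independent.

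**Figure D4:**
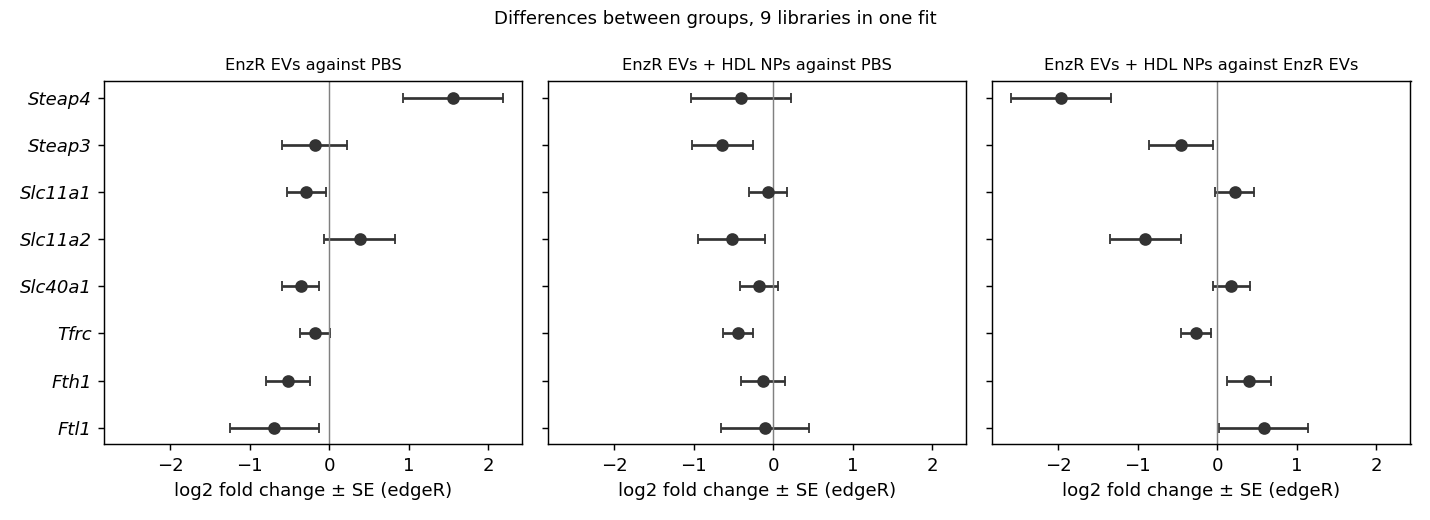
log2 fold change with its standard error for the 8 genes in the 3 comparisons, from 1 edgeR fit to 9 libraries. Steap4 lies at 1.56 in the first panel and -1.96 in the last, and the other 7 genes lie between -0.90 and 0.59 in all 3. Steap4 was chosen from the first comparison, and the last uses the same EnzR EV mice.

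Of 53 further genes of iron and heme handling, 52 were in the counts and 39 were tested. edgeR called 0 of them in each comparison, as it did over all genes; at an unadjusted p under 0.05 there were 2, 1 and 2 of 39, beside 3.47%, 2.13% and 10.6% of all tested genes. For EnzR EVs against PBS, 30 were below and 9 above 0, with a median of -0.11, where all tested genes had -0.03. In that comparison 3 lay fully below PBS and 0 fully above, beside 4.52% and 3.43% of all tested genes. Against PBS with HDL NPs, 23 were below and 16 above, with a median of -0.05, where all tested genes had -0.01. Against EnzR EVs 16 were below and 23 above, with a median of 0.11, where all tested genes had 0.03. With HDL NPs, 3 lay fully below PBS and 1 fully above, beside 6.21% and 6.96% of all tested genes. Likewise 1 lay fully below EnzR EVs and 3 fully above, beside 8.58% and 8.99%.

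Among uptake and transport genes, Trf, which encodes transferrin, stood at 153, 196 and 275 CPM in PBS mice and at 68.0, 139 and 121 CPM in EnzR EV mice. Its EnzR EV mice were all below the PBS mice, with a log2 fold change of -0.92 (SE 0.274, edgeR adjusted p = 0.928), and its HDL NP mice lay at 137, 157 and 139 CPM. Slc46a1, the heme and folate transporter, had low counts, at 0.53, 0.58 and 0.92 CPM in PBS mice, 1.65, 0.27 and 1.30 CPM in EnzR EV mice and 0.39, 0.24 and 0.28 CPM in HDL NP mice. With HDL NPs its log2 fold change was -1.16 against PBS (SE 0.666, edgeR adjusted p = 1.00), all HDL NP mice lying below the PBS mice, and -1.42 against EnzR EVs (SE 0.720, edgeR adjusted p = 0.465). The EnzR EV values of 1.65 and 1.30 CPM are Rn45s-rich libraries and rest on 3 and 11 counts. The other EnzR EV mouse, at 0.27 CPM, lay within the HDL NP range. Slc39a14, a transporter of iron that is not bound to transferrin, ranged from 0.70 to 3.29 CPM. Lcn2, the siderophore-binding lipocalin of neutrophil granules, had a log2 fold change of 0.30 with HDL NPs against PBS (SE 0.538, edgeR adjusted p = 1.00), and its 3 lowest values, 782 to 2915 CPM, are the Rn45s-rich libraries.

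Among heme genes, Hmox1, the enzyme that frees iron from heme, stood at 88.4, 168 and 258 CPM in PBS mice, 76.8, 114 and 95.8 CPM in EnzR EV mice and 154, 136 and 130 CPM in HDL NP mice. Its log2 fold change was -0.84 (SE 0.320, edgeR adjusted p = 0.928) for EnzR EVs against PBS and 0.54 (SE 0.319, edgeR adjusted p = 0.490) for HDL NPs against EnzR EVs, the HDL NP mice all lying above the EnzR EV mice. The 3 lowest Hmox1 values, 76.8 to 95.8 CPM, are the Rn45s-rich libraries, against 114 to 258 CPM in the other 6. Cd163, the scavenger receptor for haptoglobin and hemoglobin, had a log2 fold change of -0.59 with HDL NPs against PBS (SE 0.253, edgeR adjusted p = 1.00). Blvrb, biliverdin reductase B, had -0.68 for EnzR EVs against PBS (SE 0.356, edgeR adjusted p = 0.928). Trf, Hmox1 and Cd163 are known in macrophages, whose marker sum is given with Slc40a1. Of these 3 genes, Trf alone had all EnzR EV mice below all PBS mice, and the part of macrophage share in their values was not tested.

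Among storage and chaperone genes, Ncoa4, the receptor that takes ferritin to lysosomes, had HDL NP mice above all EnzR EV mice and all PBS mice. Its log2 fold change was 0.55 (SE 0.314, edgeR adjusted p = 0.487) and 0.42 (SE 0.310, edgeR adjusted p = 1.00). The 3 lowest Ncoa4 values, 24.1, 21.4 and 42.1 CPM, are the Rn45s-rich libraries, and the other PBS and EnzR EV mice, at 47.4 to 51.0 CPM, lay just under the lowest HDL NP value of 51.4 CPM. Pcbp1, an iron chaperone of ferritin, had -0.77 for HDL NPs against EnzR EVs (SE 0.268, edgeR adjusted p = 0.461). It stood at 134, 156 and 162 CPM in the 3 Rn45s-rich libraries and at 65.4 to 104 CPM in the other 6, where the EnzR EV mouse, at 95.5 CPM, lay within the HDL NP range. Glrx5, of the mitochondrial iron-sulphur cluster pathway, was 37.0, 54.9 and 29.4 CPM in the 3 Rn45s-rich libraries and 6.26 to 10.5 CPM in the other 6. Its log2 fold change for HDL NPs against EnzR EVs was -1.78 (SE 0.683, edgeR adjusted p = 0.461). Lyrm4, a partner of the cysteine desulphurase, had 0.81 in the same comparison (SE 0.526, edgeR adjusted p = 0.516), and Hscb, a cochaperone of cluster transfer, had 0.55 (SE 0.412, edgeR adjusted p = 0.555). Both were lowest in the Rn45s-rich libraries, Lyrm4 at 0 to 2.48 CPM against 3.41 to 5.63 and Hscb at 0.55 to 3.34 CPM against 3.42 to 4.67, with 0 and 1 counts in EnzR EV replicate 1. The part of Rn45s share in the values of these genes, of Hmox1, of Slc46a1 and of Lcn2 was not tested. Slc25a28, mitoferrin 2, had 0.25 with HDL NPs against PBS (SE 0.299, edgeR adjusted p = 1.00).

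The IRE system is read by a pair of iron regulatory proteins. Aco1, iron regulatory protein 1, lay between 23.0 and 27.9 CPM in all 9 libraries, and Ireb2, iron regulatory protein 2, between 82.3 and 172 CPM. Fbxl5, the ligase subunit that senses iron and removes Ireb2, lay between 329 and 376 CPM in PBS mice and at 595, 422 and 370 CPM in EnzR EV mice, with a log2 fold change of 0.40 (SE 0.197, edgeR adjusted p = 0.928). The value of 595 CPM is EnzR EV replicate 1, the library with the highest Rn45s share. HDL NP mice stood at 332, 420 and 381 CPM, and the groups overlapped in each comparison. The part of Rn45s share in the Fbxl5 values was not tested. Hamp, the hepcidin gene, had 1 count in all 9 libraries together and was not tested. Cp, the ferroxidase ceruloplasmin, had a log2 fold change of 0.40 with HDL NPs against PBS (SE 0.371, edgeR adjusted p = 1.00).

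The genes whose pattern over the 9 libraries was most like that of Steap4 were taken by Pearson's r on log2 CPM with a prior count of 2. They were Dusp18 (r = 0.936), Igfbp6 (r = 0.934), Ifitm1 (r = 0.934), AI646023 (r = 0.928) and Ttc32 (r = 0.923), the highest of 12553 genes and so a description. With group means removed, r was 0.832 to 0.879. Ifitm1, an interferon-induced membrane protein gene, stood at 28.7, 13.8 and 19.6 CPM in PBS mice, 39.0, 67.8 and 36.9 CPM in EnzR EV mice and 17.1, 38.2 and 16.3 CPM in HDL NP mice. As for Steap4, PBS replicate 1, EnzR EV replicate 2 and HDL NP replicate 2 were the highest of their groups. The points share library and depth, and Dusp18 was at 0.35 to 1.10 CPM. Among the other 7 genes of iron handling, r with Steap4 ran from -0.46 (Fth1) to 0.39 (Steap3).

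**Figure D5:**
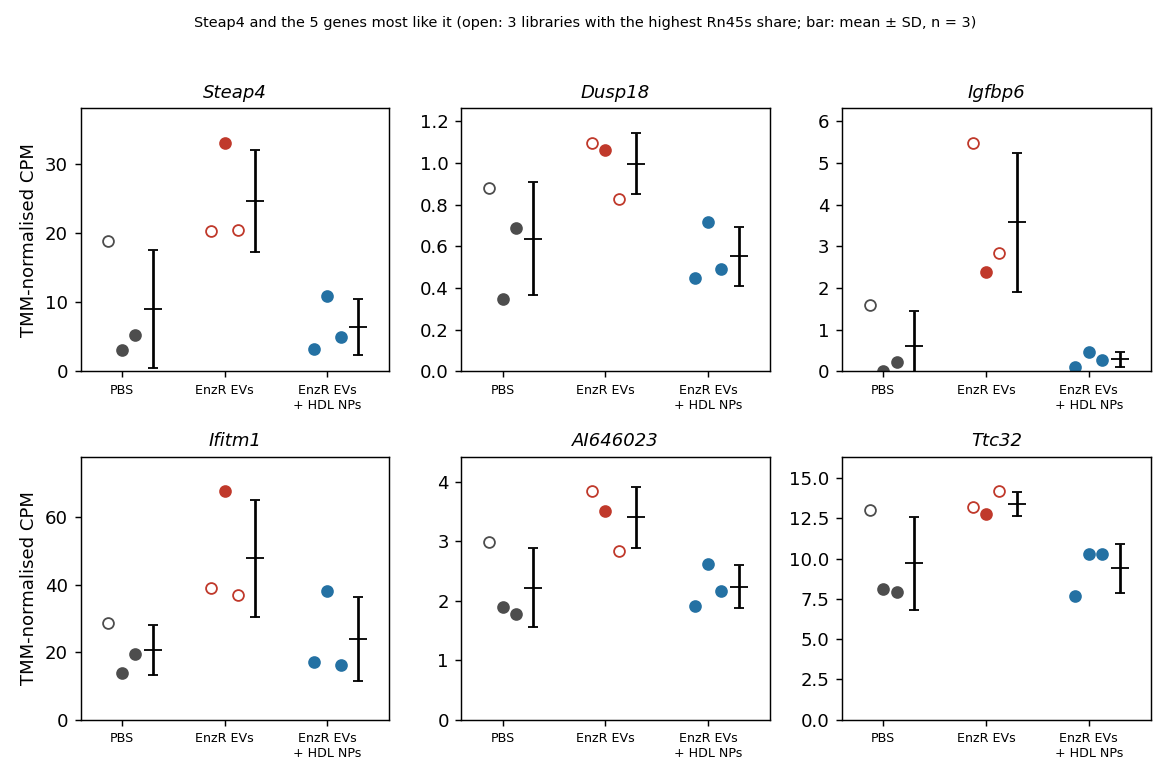
TMM-normalised CPM of Steap4 and the 5 genes most like it, 1 point per mouse, with the group mean ± SD (n = 3); open points are the 3 libraries with the highest Rn45s share. In each panel PBS replicate 1 is the highest PBS point; it exceeds at least 1 EnzR EV point for Dusp18, AI646023 and Ttc32, and HDL NP replicate 2 exceeds 1 for Ifitm1.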

How the data were processed

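For every one of the 9 libraries the authors deposited a table of unnormalised gene counts. Per the labels and the study's methods, reads were trimmed with cutadapt 1.13, aligned to mm10 with STAR and counted with HTSeq 0.6.1p1. The STAR version and the strand setting are not given in the sources used here. The labels give HDL NPs at 1 µM, a value that differs from that in the methods.

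Counts were tested with edgeR 4.0.16 (R 4.3.3; filterByExpr, TMM, robust quasi-likelihood F test, 3 groups in 1 fit, Benjamini-Hochberg over 12553 genes). DESeq2 1.42.0 and limma 3.58.1 were alternatives. Standard errors are the absolute log2 fold change divided by the square root of F. The edgeR fit was tested on simulated data. Each mouse gave 1 library, and 3 counts correspond to 0.160 to 1.65 CPM. Group means of the CPM of single genes were compared with two-sided exact permutation tests of 3 mice against 3.

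The 8 genes, the companion lists and the motifs were chosen with earlier results of these data known. Named were the 8 genes, per comparison the companion genes past the threshold and the 4 highest and 4 lowest by log2 fold change, and the 5 genes most like Steap4. Aco1, Ireb2 and Hamp were added after their values were seen. Of 171 list entries, 167 matched the counts. Sequences are from GENCODE M21 and RefSeq (GRCm38.p6).

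DESeq2 was run with the same filter as edgeR, as planned. It was also run without that filter, after the filtered counts had been seen, and both are given.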

Additional observations from a re-analysis of the deposited data

How the results depend on the processing

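Alternatives changed the test, normalization, filter, libraries or covariates, 22 for each result. For EnzR EVs against PBS the count of called genes, 0 with edgeR, was 11 with DESeq2, 1990 with limma voom and sample quality weights, 1 without a filter on low counts, 5 without the 2 libraries richest in Rn45s, and 0 to 2 when 1 library was left out (2 without PBS replicate 1). For HDL NPs against PBS it was 8 with DESeq2 and 10 with quality weights, and for HDL NPs against EnzR EVs 1 with DESeq2, 653 with quality weights, 1 with the 6 libraries of these groups and 1 without the 2 richest in Rn45s. For both, it was 0 to 0 when 1 library was left out. Chosen after seeing the data were DESeq2 without the filter on low counts (14, 2 and 1 genes in the 3 comparisons, where the filtered run gave 11, 8 and 1), leaving out the 3 libraries richest in Rn45s (10 genes for EnzR EVs against PBS and 1 for HDL NPs against EnzR EVs) and the log2 Rn45s share as a covariate (1 gene for EnzR EVs against PBS). The causes were not tested.

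Steap4 kept its sign for HDL NPs against EnzR EVs in all 22 alternatives (-2.61 to -1.64, adjusted p 0.0474 to 1.00). It passed 0.05 only with quality weights in limma (-1.79, adjusted p = 0.0474), a setting that called 653 of 12553 genes. The EnzR EV mice here are those of the contrast that chose Steap4, so the sign is not independent of that choice. For EnzR EVs against PBS, the contrast that chose it, the log2 fold change of Steap4 ran from 1.11 to 3.00. In that contrast the sign turned under some alternatives for Steap3 (-0.44 to 0.32), Slc11a2 (-0.24 to 0.74) and Tfrc (-0.34 to 0.0479), and leaving out 1 library gave -0.75 to -0.25 for Fth1 and -1.50 to -0.27 for Ftl1. For HDL NPs against PBS, Steap4 turned to 0.0439 with limma voom, 0.63 with quality weights and 0.63 without the 2 or the 3 Rn45s-rich libraries, and ran from -1.06 to 0.63 when 1 library was left out. Leaving out 1 library also turned Slc11a1 (-0.31 to 0.0769), Fth1 (-0.26 to 0.00793) and Ftl1 (-0.44 to 0.16) there, and Slc11a1 (-0.0397 to 0.35) and Slc40a1 (-0.0346 to 0.30) for HDL NPs against EnzR EVs. In that last comparison, without the 3 Rn45s-rich libraries Steap3 turned to 0.0254, Slc11a1 to -0.0252, Slc40a1 to -0.0399, Fth1 to -0.00995 and Ftl1 to -0.32. With the Rn45s covariate Steap3 turned to 0.15, Slc11a1 to -0.14, Slc40a1 to -0.11 and Ftl1 to -0.34, and without the 2 richest libraries Slc40a1 turned to -0.0350.

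Replicate numbers were not shown to pair the mice. Over 9 same-number pairs r ran from -0.175 to 0.492 (mean 0.174, against -0.0758 for different numbers), and 6 pairs had r above 0.1. Among them were the same-number pairs of PBS with EnzR EVs, at 0.473, 0.492 and 0.131. Of 9 libraries, 5 were most like one of their own number. With the replicate block, 1 gene was called for EnzR EVs against PBS, and Ftl1 turned to 0.050006 for HDL NPs against PBS.

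Depth limits Steap4 most in EnzR EV replicate 1, where it rests on 37 counts.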
